A study of Mus musculus with 4 samples.

Results

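The mitochondrial genome of the mouse carries 37 annotated genes, and all 37 were taken here by their chromosome, chrM, from a table of 50600 genes. They comprise 13 messenger RNA genes, 2 ribosomal RNA genes and 22 transfer RNA genes, with 28 genes coded on the plus strand of the deposited annotation and 9 on the minus strand. RNA was sequenced from primary T cells of the mouse strain C57BL/6NJ in 4 libraries, which form 1 group and carry the biological replicate numbers 1 to 4. The labels name no treatment and give the age as unknown. They title the assay total RNA-seq, but link to a protocol for poly(A)+ RNA libraries and to one for differentiation of CD4+ T cells. The alignment names in the file headers carry the words Th0, activated and 24h, which were used for no grouping. All libraries share 1 strain-level donor entry, and no label says that they came from separate animals, so each p-value reflects the spread among these 4 samples alone, and that spread may be technical.

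Mitochondrial DNA is transcribed from both strands into long precursors that span most of the circle, and the transfer RNAs that lie between the other genes mark the places where these precursors are cut. The messenger RNAs encode core subunits of the respiratory chain complexes I, III and IV and of the ATP synthase, complex V, and most of them receive a poly(A) tail. The ribosomal RNAs and transfer RNAs serve the organelle's own translation. Activated T cells are known for a rise in mitochondrial biogenesis and respiration.

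Library totals were 60102919, 273136467, 48608896 and 47558517 fragments in replicates 1 to 4, so that replicate 2 was sequenced far more deeply than the others. Levels are given in TPM, the fragment count divided by exon length and scaled so that all genes have the same sum in each library. The 6 T-cell markers examined (Cd3e, Cd3d, Trac, Trbc2, Cd4 and Lck) were all above 10 TPM in every library, with summed levels of 4423 to 4787 TPM. Summed levels were 0.0704 to 0.642 TPM for 3 myeloid markers, 0 to 0.172 TPM for 2 natural killer markers and 0 TPM for 3 red cell and platelet markers. The B-cell marker Cd79a was at 0.734 to 2.09 TPM.

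Part of the mitochondrial genome has near-identical copies in the nuclear genome, and their sequences are shown first because the levels below have to be read beside them. A search of all annotated transcripts found 7 pseudogenes on chromosome 1 (mm10, chr1:24611535-24616188, minus strand) that align in the same order as the mitochondrial stretch chrM:6390-11042 and span 4654 bases against its 4653. Over the 4140 aligned bases of these 7 pairs there were 2 mismatches. Their neighbours were 140, 233, 2 and 69 bases apart in both genomes up to the mt-Nd3 copy, and only the next gap differed, with 73 bases on chrM against 74 on chromosome 1. The copies are Gm29216 of the last 483 bases of mt-Co1, Gm28661 of mt-Co2, Gm10925 of mt-Atp6 with 43 bases of mt-Atp8, Gm28437 of mt-Co3, Gm28438 of mt-Nd3, Gm10222 of mt-Nd4l and Gm28439 of the first 876 bases of mt-Nd4. The stretch holds 11 mitochondrial genes wholly (6 messenger and 5 transfer RNA genes) and 2 messenger RNA genes in part, mt-Co1 and mt-Nd4.

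The 2 mismatched bases are capitalized in the pairs that follow, each written 5′ to 3′ along the gene: mt-Co1 at chrM:6390-6423 (plus strand) with Gm29216 at chr1:24616155-24616188 (minus strand), and mt-Nd3 at chrM:9459-9491 (plus strand) with Gm28438 at chr1:24613087-24613119 (minus strand).
mt-Co1: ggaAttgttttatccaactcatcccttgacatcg
Gm29216: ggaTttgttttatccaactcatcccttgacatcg
mt-Nd3: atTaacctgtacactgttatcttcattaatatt
Gm28438: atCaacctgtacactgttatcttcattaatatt
Counted from base 1 of each mitochondrial gene, with the mitochondrial base first, the substitutions are A1066T in mt-Co1, at the edge of the alignment, and T3C in mt-Nd3. As background, C57BL/6NJ mitochondrial DNA is known to differ from the C57BL/6J-derived reference by this same T3C change, and the reads of these libraries were not analysed here. The other copies aligned to their genes without a mismatch. Of all stretches of 100 bases in the gene, 99.5% in mt-Co2, 99.5% in mt-Atp6, 99.9% in mt-Co3, 97.6% in mt-Nd3 and 98.5% in mt-Nd4l occur letter for letter in an annotated nuclear transcript. The share was 60.8% in mt-Nd4, 30.8% in mt-Co1 and 3.2% in mt-Nd2, and 0% in mt-Nd1, mt-Nd5, mt-Nd6, mt-Cytb, mt-Atp8, mt-Rnr1 and mt-Rnr2. Fragments that aligned to several places were not counted for any gene, per the file headers, so the levels of genes with such copies are uncertain.

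Within that stretch, 2 pairs of mitochondrial genes also overlap each other on the same strand, beside a single base shared by mt-Atp6 and mt-Co3. Counting ran without the option that counts a fragment for several genes. mt-Atp8 (chrM:7766-7969) shares its last 43 bases with mt-Atp6, and mt-Nd4l (chrM:9877-10173) shares its last 7 bases with mt-Nd4. The shared bases are in capitals in the plus-strand sequences below, which are the GENCODE vM21 transcripts on mm10.
mt-Atp8: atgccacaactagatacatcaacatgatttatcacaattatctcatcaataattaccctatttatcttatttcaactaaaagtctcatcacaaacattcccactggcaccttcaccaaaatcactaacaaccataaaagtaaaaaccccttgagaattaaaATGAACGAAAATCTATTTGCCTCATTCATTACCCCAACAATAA
mt-Nd4l: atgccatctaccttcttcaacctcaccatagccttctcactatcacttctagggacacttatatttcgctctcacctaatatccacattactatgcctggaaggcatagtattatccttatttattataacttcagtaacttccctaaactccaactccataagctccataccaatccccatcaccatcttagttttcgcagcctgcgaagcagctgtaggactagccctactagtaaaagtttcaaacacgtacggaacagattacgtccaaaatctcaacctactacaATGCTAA
mt-Atp8 is the member with no fragment in any library among the messenger RNA genes. Of the 6 inside the stretch, it alone has no annotated nuclear copy of 99% identity or more over most of its length (all but 43 of 204 bases). A more distant annotated copy, Gm28925 on chromosome 1, aligned over 167 bases with 81.4% identity. Apart from those 43 bases, mt-Atp8 lies in the gap of 233 bases on chrM between the parts aligned to the copies of mt-Co2 and mt-Atp6. The sequence of the 233 bases between these copies on chromosome 1 was not analysed here.

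Together the 37 genes took 367914, 1621906, 289407 and 275724 fragments in replicates 1 to 4. These are 0.612%, 0.594%, 0.595% and 0.58% of all fragments assigned to genes, or 0.595% ± 0.0133 (SD, n = 4). The Wilson 95% interval was 0.61% to 0.614% in replicate 1 and 0.578% to 0.582% in replicate 4. The 2 intervals do not overlap, and like the detection floors below they cover counting error only. In bulk RNA, fewer cells of a type and less RNA per cell cannot be told apart. Messenger RNA genes supplied 95.7% ± 0.45 of the mitochondrial fragments, ribosomal RNA genes 4.26% ± 0.449 and transfer RNA genes 0.0553% ± 0.00117 (SD, n = 4 each). The 9 minus-strand genes supplied 0.0302%, 0.0429%, 0.0473% and 0.021% of them in replicates 1 to 4, a mean of 0.0353% ± 0.012. The lowest strand share was that of replicate 4 and the highest that of replicate 3.

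At 1 TPM or more in all 4 libraries stood 15 of the 37 genes, of which 7 were messenger, 2 ribosomal and 6 transfer RNA genes. For genes as short as transfer RNA genes, 1 TPM can be fewer than 3 fragments. At least 3 fragments in all libraries were counted for 13 of the 37, with 4 transfer RNA genes among them. The transfer RNA genes mt-Ti and mt-Tp had only 2 in some libraries. At 10 TPM in all libraries the number was 11. Among all 50600 genes, 11483 (22.7%) reached 1 TPM and 8109 (16%) reached 10 TPM in every library. No fragment was counted in any library for 12 of the 37, which are mt-Atp8 and 11 transfer RNA genes.

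**Figure D1:**
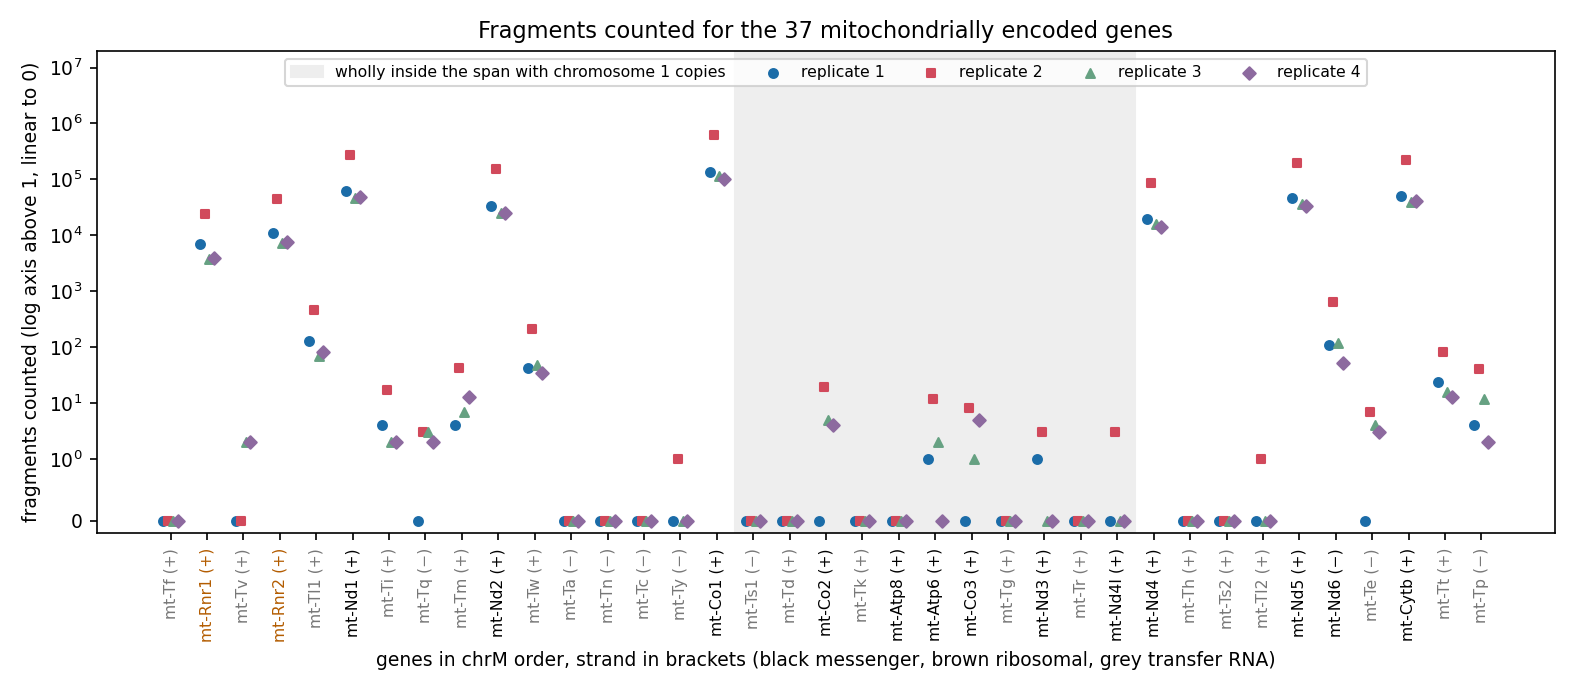
Fragments counted for each of the 37 genes in their order on chrM (horizontal axis, strand in brackets) in the 4 libraries (vertical axis, logarithmic above 1). The 11 genes in the grey band lie wholly inside the stretch with chromosome 1 copies and hold between 0 and 19 fragments in any library, while mt-Co1 and mt-Nd4 on either side hold at least 102679 and 13952.

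The 7 messenger RNA genes outside the stretch, or only partly in it, held 2444293 fragments over the 4 libraries. The 6 genes wholly inside it held 64.

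Among the complex I genes, which encode membrane subunits of NADH dehydrogenase, mt-Nd2 (chrM:3914-4951) was at 1834, 1875, 1726 and 1690 TPM in replicates 1 to 4 (1781 ± 87.5, SD, n = 4). mt-Nd1 (chrM:2751-3707) was at 3695, 3546, 3410 and 3558 TPM (3552 ± 116). No library of mt-Nd2 reached the lowest value of mt-Nd1. The difference of mt-Nd2 minus mt-Nd1 was -1.01, -0.92, -0.98 and -1.07 on the log2(TPM + 1) scale, with the same sign in 4 of 4 libraries. A two-sided exact permutation test over sign flips gave p = 0.125, the smallest that 4 libraries allow, and 0.172 after Benjamini-Hochberg adjustment over the 11 gene pairs compared. No pair could therefore pass 0.05.

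mt-Nd5 (chrM:11742-13565) was at 1434, 1364, 1430 and 1332 TPM (1390 ± 50.3), and mt-Nd4 (chrM:10167-11544) at 785, 788, 813 and 722 TPM (777 ± 38.7). As deposited, the ranges of mt-Nd5 and mt-Nd4 did not overlap, and mt-Nd5 minus mt-Nd4 was 0.84 ± 0.04 (log2 scale, n = 4, exact permutation p = 0.125, 0.172 adjusted). This order depends on the length by which mt-Nd4 is divided. If every counted fragment of mt-Nd4 came from its 502 bases without an annotated copy, its level would be 2148, 2155, 2222 and 1974 TPM (2125 ± 106), and the difference would be -0.62. That assumption was not tested.

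mt-Nd6 (chrM:13552-14070) is the only messenger RNA gene on the minus strand and encodes a further membrane subunit of complex I. It had 107, 643, 118 and 51 fragments in replicates 1 to 4, or 11.6, 15.7, 16.1 and 7.01 TPM (12.6 ± 4.23). Replicate 4 was the lowest and replicates 2 and 3 the highest. Set against its overlapping plus-strand neighbour, mt-Nd6 minus mt-Nd5 was -6.74 ± 0.48 on the log2(TPM + 1) scale, and against mt-Cytb it was -7.58 ± 0.53 (n = 4, exact permutation p = 0.125 each, 0.172 adjusted). Counting used the strand, and mt-Nd6 and mt-Nd5 share 14 bases on opposite strands. The B-cell marker Cd79a was at 0.851, 2.09, 1.6 and 0.734 TPM in replicates 1 to 4. It was also highest in replicates 2 and 3 and lowest in replicate 4. Ms4a1 was at 0.392, 0.443, 0.24 and 0.196 TPM, lowest in replicate 4 too, but highest in replicates 1 and 2. The part of B-cell RNA in the mt-Nd6 values was not tested.

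The remaining complex I genes lie inside the copied stretch. mt-Nd3 (chrM:9459-9806) had 1, 3, 0 and 0 fragments in replicates 1 to 4, and mt-Nd4l had 0, 3, 0 and 0. Neither exceeded 3 fragments, the number taken here as detection floor, in any library. mt-Nd4 minus mt-Nd4l, which overlap and are known to be carried on 1 transcript, was 9.56 ± 0.10 on the log2(TPM + 1) scale (n = 4, exact permutation p = 0.125, 0.172 adjusted). With mt-Nd4l at 0 in 3 of 4 libraries, the pseudocount sets the size of this difference, which was 12.63 with 0.1 and 6.29 with 10 in place of 1.

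mt-Cytb (chrM:14145-15288) encodes cytochrome b, the mitochondrially encoded subunit of complex III. It was at 2487, 2442, 2483 and 2557 TPM, with the narrow spread of 2492 ± 47.6. It exceeded mt-Nd5, from which it is separated on its strand by 579 bases that hold mt-Nd6 and mt-Te on the other strand, by 0.84 ± 0.07 (log2 scale, n = 4, exact permutation p = 0.125, 0.172 adjusted).

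Among the complex IV genes, mt-Co3 (chrM:8607-9390) and mt-Co2 (chrM:7013-7696), which encode large subunits beside the catalytic one, lie inside the stretch. mt-Co3 had 0, 8, 1 and 5 fragments in replicates 1 to 4, and mt-Co2 had 0, 19, 5 and 4. mt-Co3 minus mt-Co2 was -0.17 ± 0.24 on the log2(TPM + 1) scale, negative in 2 of 4 libraries (exact permutation p = 0.5, 0.5 adjusted). The catalytic subunit, mt-Co1 (chrM:5328-6872), was the member of highest level, at 5001, 5111, 5216 and 4738 TPM (5016 ± 205), and ranked 10 by mean TPM among all genes. Relative to mt-Co1, mt-Co2 stood at -11.91 ± 0.27 and mt-Co3 at -12.08 ± 0.28 on the same scale (n = 4, exact permutation p = 0.125 each, 0.172 adjusted). These sizes also follow the pseudocount, with -13.82 and -8.93 for mt-Co2 and -14.46 and -8.95 for mt-Co3 at 0.1 and 10. With its length limited to the 1062 bases that have no annotated copy of 99% identity, the level of mt-Co1 would be 7270 ± 297 TPM under the same untested assumption as for mt-Nd4.

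Both mitochondrial genes of complex V are inside the stretch. mt-Atp6 (chrM:7927-8607), the subunit that forms part of the proton channel, had 1, 12, 2 and 0 fragments in replicates 1 to 4. mt-Atp8, its small partner, had 0 in all, where 3 fragments would have been between 0.186 and 1.05 TPM. With mt-Atp8 at 0 throughout, no difference between them was read from these counts.

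The 7 chromosome 1 copies together had 114, 370, 95 and 93 fragments in replicates 1 to 4. All were thus far below the values of mt-Co1 or mt-Nd4, and above the 2, 45, 8 and 9 fragments of the 6 messenger RNA genes inside the stretch. Gm28438, the copy of mt-Nd3 with the T3C mismatch, had the highest level of the 7, at 7.52, 5.46, 6.56 and 6.41 TPM (6.49 ± 0.843). Its 258 fragments over the 4 libraries compare with 4 for mt-Nd3. The other copies had means of 0.147 TPM (Gm10222) to 1.62 TPM (Gm10925). Among the more distant pseudogene copies, the most fragments fell on a copy of mt-Co1 on chromosome 2 with 97.6% identity. It had 50, 173, 50 and 59 fragments in replicates 1 to 4. The 16 pseudogene copies of 90% identity or more that have a row in the deposited tables, the 7 included, summed to 185, 672, 169 and 179 fragments.

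**Figure D2:**
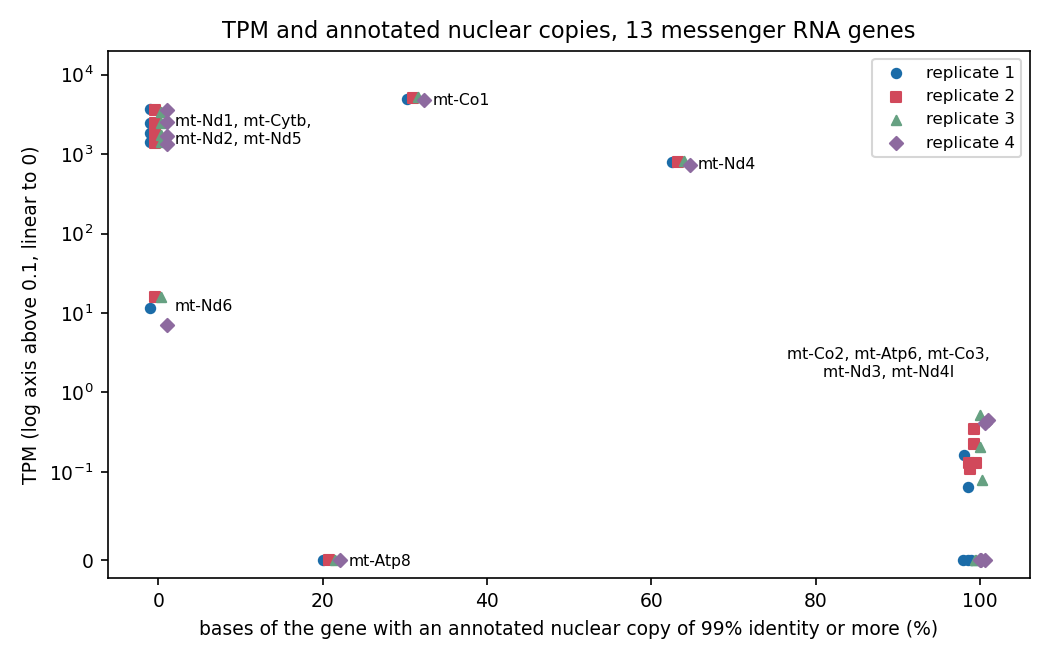
TPM of the 13 messenger RNA genes in the 4 libraries (vertical axis, logarithmic above 0.1) against the share of each gene's bases that has an annotated nuclear copy of 99% identity or more (horizontal axis, percent; points of 1 gene are spread sideways). The 5 genes near 100% are below 1 TPM, mt-Atp8 is at 0 with 21.1%, and mt-Co1 and mt-Nd4 are at high TPM with partial copies.

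In order of mean level, the messenger RNA genes ran mt-Co1, mt-Nd1, mt-Cytb, mt-Nd2, mt-Nd5, mt-Nd4 and mt-Nd6, and the TPM ranges of all neighbours in this order were separate, including mt-Nd6 and the next gene, mt-Co2. From mt-Co2 down, the ranges overlapped (mt-Co2, mt-Co3, mt-Atp6, mt-Nd3, mt-Nd4l and mt-Atp8). The order of these last 6 could not be resolved at these counts. The place of mt-Nd4 holds for its full length only, since on its bases without a copy it would stand at 2125 TPM, above mt-Nd2 and mt-Nd5.

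**Figure D3:**
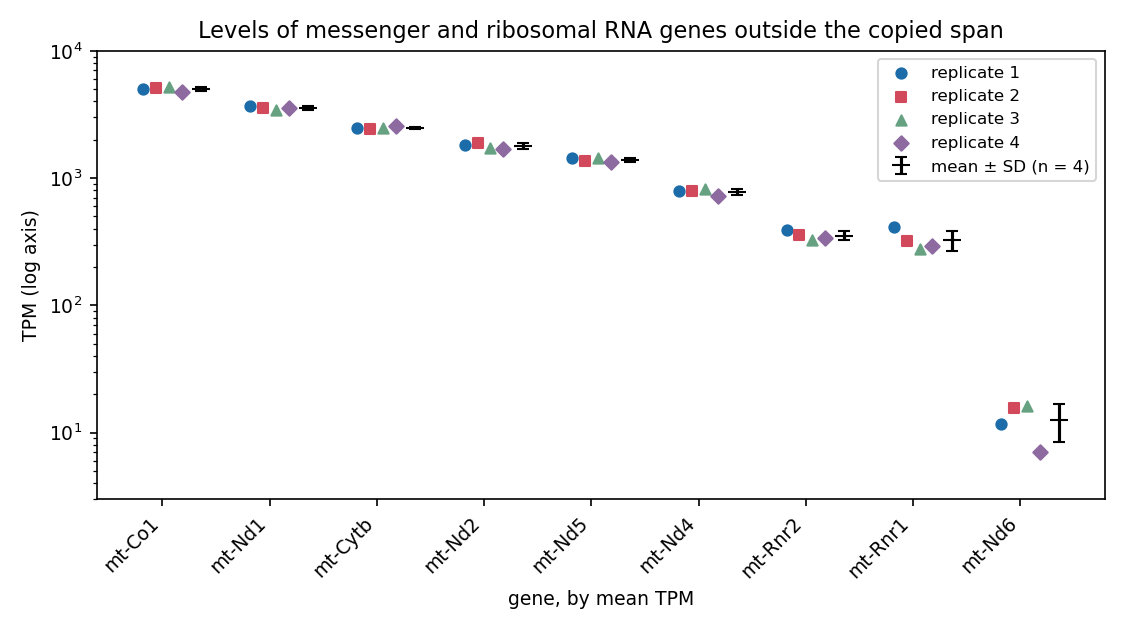
TPM (logarithmic vertical axis) of the 7 messenger and 2 ribosomal RNA genes that are not wholly inside the copied stretch, ordered by mean, with 1 point per library and the mean ± SD beside them. mt-Co1 leads with 5016 TPM, the 2 ribosomal RNA genes overlap near 353 and 325 TPM, and mt-Nd6 lies lowest at 12.6 TPM with the widest relative spread of the 9.

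The ribosomal RNA genes lie next to each other, separated by mt-Tv. mt-Rnr2 (chrM:1094-2675), the RNA of the large mitochondrial ribosomal subunit, was at 392, 357, 324 and 337 TPM (353 ± 29.5). mt-Rnr1 (chrM:70-1024, ENSMUSG00000064337.1), the RNA of the small subunit, was at 410, 320, 278 and 292 TPM (325 ± 59.1). Their ranges overlapped, and mt-Rnr2 minus mt-Rnr1 was 0.13 ± 0.13 on the log2(TPM + 1) scale, positive in 3 of 4 libraries, with replicate 1 at -0.06 (exact permutation p = 0.25, 0.275 adjusted). The ratio of messenger to ribosomal fragments was 19.5, 22.5, 25.3 and 23.2 in replicates 1 to 4 (22.6 ± 2.4), lowest in replicate 1. Ribosomal RNA of mitochondria is known to be far more abundant in whole RNA than its messenger RNA and to carry only short tails.

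Transfer RNA genes supplied 1392 fragments in all, of which mt-Tl1, the gene of a leucine transfer RNA, held 742 and mt-Tw, the gene of the tryptophan transfer RNA, held 336. Their plus-strand sequences, chrM:2676-2750 and chrM:4950-5016, show how short the counted features are, and the last 2 bases of mt-Nd2 are the first 2 of mt-Tw.
mt-Tl1: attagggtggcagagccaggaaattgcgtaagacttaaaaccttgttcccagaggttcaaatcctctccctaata
mt-Tw: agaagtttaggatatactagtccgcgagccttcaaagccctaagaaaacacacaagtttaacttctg
mt-Tl1, between mt-Rnr2 and mt-Nd1 with no base left over on either side, had 128, 463, 68 and 83 fragments in replicates 1 to 4, or 96.2, 78, 64.2 and 78.9 TPM (79.3 ± 13.1). mt-Tw had 43, 212, 47 and 34 fragments, or 36.2, 40, 49.6 and 36.2 TPM (40.5 ± 6.36). mt-Tt (threonine), which adjoins mt-Cytb, had 24, 82, 16 and 13 fragments (16.6 ± 2.7 TPM).

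The next transfer RNA genes by level were mt-Tm (methionine), with 4, 43, 7 and 13 fragments, mt-Tp (proline, minus strand), with 4, 41, 12 and 2, and mt-Ti (isoleucine), with 4, 17, 2 and 2. Fragments were missing in some libraries for mt-Te (glutamate) and mt-Tq (glutamine), which had none in replicate 1, and for mt-Tv (valine), which had none in replicates 1 and 2. mt-Ty (tyrosine) and mt-Tl2 (another leucine) had 1 fragment each, in replicate 2. The 11 genes with none were mt-Tf, mt-Ta, mt-Tn, mt-Tc, mt-Ts1, mt-Td, mt-Tk, mt-Tg, mt-Tr, mt-Th and mt-Ts2. Of these, mt-Ts1, mt-Td, mt-Tk, mt-Tg and mt-Tr lie wholly inside the copied stretch and the other 6 do not. Transfer RNA genes measured 59 to 75 bases. A fragment that ran from one of them into an adjoining gene on the same strand was not counted for both.

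Variation between the libraries beyond that of other genes of the same level was tested with edgeR across 12712 genes, of which 47 (0.370%) passed at an adjusted p of 0.05. Of the 37 mitochondrial genes, 12 had enough fragments to be tested. Of these, 1 passed, mt-Rnr1, with a residual deviance of 25.1 over 3 degrees of freedom and an adjusted p of 0.00549 (edgeR, Benjamini-Hochberg). The median deviance was 0.764 over the 12 and 1.94 over all genes tested. Around its mean, mt-Rnr1 stood at 0.35 in replicate 1 and at -0.01, -0.21 and -0.14 in replicates 2 to 4 (log2 TPM). The neighbouring mt-Rnr2 had its highest value in the same library, with 0.16 in replicate 1 against 0.02, -0.12 and -0.06, and did not pass (deviance 6.24, edgeR adjusted p = 1). The minus-strand mt-Nd6 had the widest deviations of the 12, from -0.77 in replicate 4 to 0.43 in replicate 3, and did not pass (deviance 6.02, edgeR adjusted p = 1).

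The call of mt-Rnr1 was lost when either replicate 1 or replicate 2 was left out. Its deviance was 3.03 without replicate 1 and 18.3 without replicate 2. Without replicate 1 its edgeR adjusted p was 1, and without replicate 2 it was 0.0528, against 0.015 without replicate 3 and 0.00276 without replicate 4. Replicate 1 also differed from the others in its trend with GC content. Across 12692 tested genes with a known sequence, the rank correlation of the gene's deviation with its GC content was -0.343 in replicate 1 and 0.080, 0.190 and 0.200 in replicates 2 to 4, given as a description without a test. mt-Rnr1 has 35.8% GC and mt-Rnr2 35.4%, where the median of the tested genes was 49.6%. Other members of like GC content differed in replicate 1. mt-Nd4 (35.6% GC) stood at 0.02, mt-Nd2 (35.7% GC) at 0.04 and mt-Nd6 (34.1% GC) at -0.04. mt-Tt (34.3% GC), with 24 fragments in that library, stood at 0.30. The source of these differences was not tested. With trends in GC content and length removed from each library, the deviance of mt-Rnr1 was 8.9 and its edgeR adjusted p 0.859. The deviance also fell for mt-Rnr2 (0.271, against 6.24 before), mt-Tl1 (0.784, against 1.26) and mt-Tt (0.161, against 0.474). It rose for all other tested members, among them mt-Nd4 (7.12, against 1.35) and mt-Nd2 (2.35, against 0.949).

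**Figure D4:**
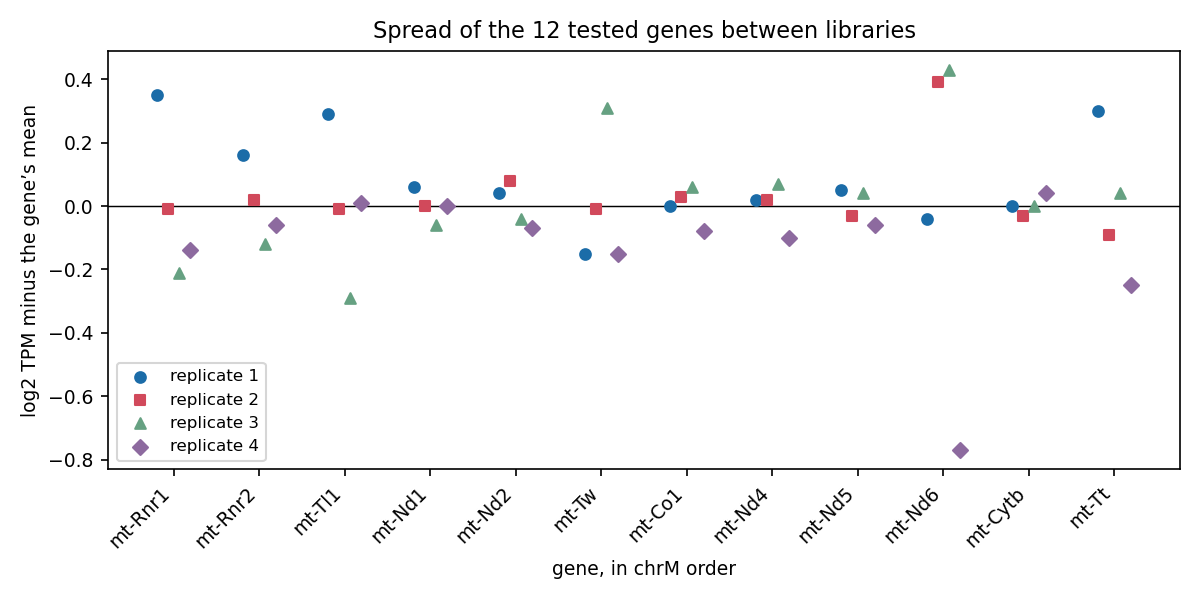
Deviation of log2 TPM from the gene's own mean (vertical axis) in the 4 libraries for the 12 tested mitochondrial genes, in chrM order. The 6 plus-strand messenger RNA genes stay within 0.10 of 0, mt-Rnr1 reaches 0.35 in replicate 1, and mt-Nd6 lies at -0.77 in replicate 4.

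The subunits of each respiratory complex come from both genomes, and their levels were compared per length within each library. Copies of the nuclear-encoded genes were not searched. How many of their fragments went uncounted because they aligned to several places is therefore unknown. For complex III, mt-Cytb stood 3.09 ± 0.02 above the median of 9 nuclear-encoded subunits on the log2(TPM + 1) scale, with the nuclear median at 291 ± 7.49 TPM. For complex I, the median of the 7 mitochondrial genes stood 2.13 ± 0.04 above that of 8 nuclear-encoded core subunits (177 ± 3.76 TPM). The direction held in 4 of 4 libraries for both (exact permutation p = 0.125, the smallest possible with n = 4, and 0.125 adjusted over the 4 complexes). With the mean in place of the median, the sign for complex I turned, to -0.66, since 2 of its 7 mitochondrial genes are near 0.

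For complex IV the sign depended on the copied stretch. As deposited, the mitochondrial minus the nuclear median was -7.93 ± 0.31 for complex IV and -7.70 ± 0.10 for complex V (log2 scale, n = 4, exact permutation p = 0.125 each, 0.125 adjusted). With these mitochondrial medians below 1 TPM, the pseudocount of 1 sets the size of both differences. Pseudocounts of 0.1 and 10 gave -9.83 and -5.00 for complex IV and -10.57 and -4.51 for complex V. With the genes wholly inside the stretch left out, and mt-Nd4, which has a copy over most of its length, mt-Co1 alone remained for complex IV and stood 3.96 ± 0.13 above the nuclear median of 325 ± 14.8 TPM, complex I stood at 3.14 ± 0.04, and complex V had no mitochondrial gene left. The nuclear-encoded subunits of highest level were the ATP synthase genes Atp5b (1581 ± 25.4 TPM) and Atp5a1 (1526 ± 38.4 TPM), which form the catalytic part of the enzyme, and the complex IV gene Cox8a (1291 ± 51.5 TPM). Of the 37 nuclear subunit genes, 36 reached 10 TPM in all libraries. None of them was called variable by edgeR, with its own dispersions or with size factors and dispersions from DESeq2. Of all 12712 genes tested, 47 were called with the former and 56 with the latter. At an unadjusted edgeR p under 0.05 stood 3 of the 37, beside 651 of the 12712.

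**Figure D5:**
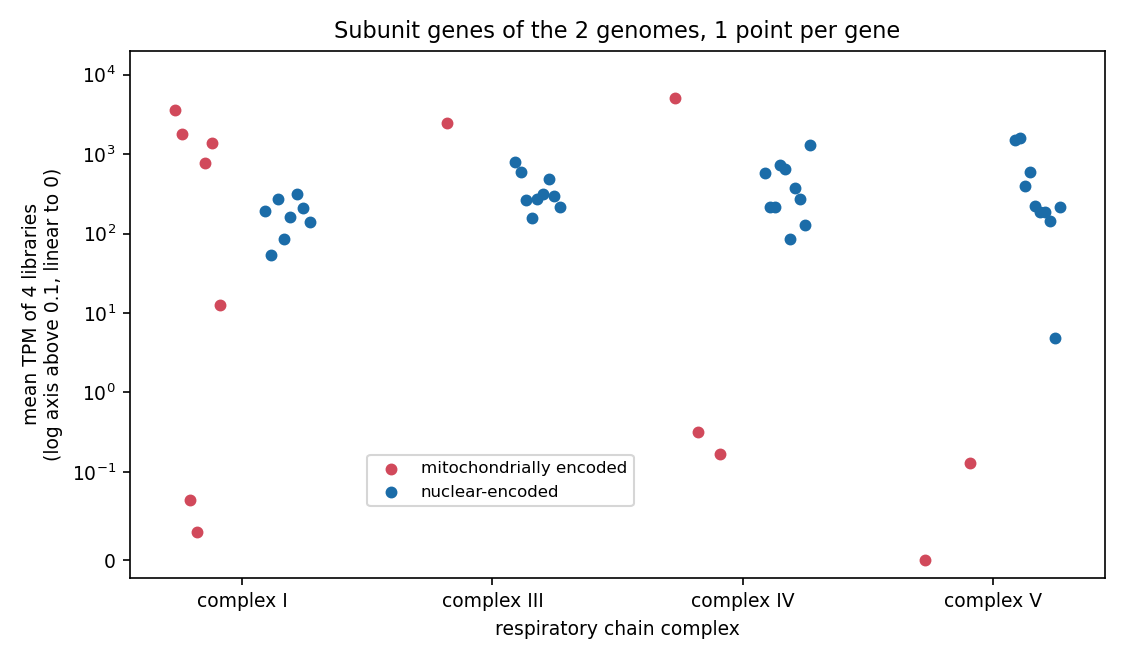
Mean TPM over the 4 libraries (vertical axis, logarithmic above 0.1) of mitochondrially encoded subunit genes (red, left) and nuclear-encoded ones (blue, right) by respiratory complex, with 1 point per gene. Mitochondrial genes run from 0 (mt-Atp8) to 5016 TPM (mt-Co1), while nuclear ones run from 4.85 TPM (Atp5l) to 1581 TPM (Atp5b).

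Nuclear genes that serve the mitochondrial genome and its RNA were present throughout. All 16 listed genes of transcription and maintenance reached 1 TPM in every library and 11 of them reached 10 TPM, led by Polg (the DNA polymerase, 72.8 ± 3.24 TPM), Tfam (the packaging and initiation factor, 67.5 ± 5.29 TPM) and Top1mt (the topoisomerase, 63 ± 2.41 TPM). All 17 genes of RNA processing and turnover reached 10 TPM, led by Tbrg4 (a FASTK-family RNA-binding protein, 247 ± 17.8 TPM), Elac2 (which cuts the 3′ end of transfer RNAs, 157 ± 10.6 TPM) and Hsd17b10 (a subunit of the enzyme that cuts the 5′ end, 132 ± 11.6 TPM). All 10 genes of RNA methylation and ribosome assembly did so too, led by Eral1 (a chaperone of the small subunit's RNA, 76.5 ± 7.35 TPM), Dhx30 (an RNA helicase, 73 ± 5.57 TPM) and Trmt5 (a transfer RNA methyltransferase, 72.4 ± 3.61 TPM). None of these 43 genes was called variable between libraries by edgeR, with its own or the DESeq2 dispersions. An unadjusted edgeR p under 0.05 was found for 3 of them, beside 651 of the 12712 genes tested.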

How the data were processed

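Whole-number fragment counts per gene were deposited by the authors for each of the 4 libraries. Per the file headers, exons of GENCODE vM13 were counted by featureCounts 1.4.6-p4, requiring both ends of a fragment to align, with strand setting 2 (reverse-stranded), without the options for fragments with several alignments or several genes; the other deposited value used is the exon length. The alignments are named as STAR output, the labels name mm10, and the aligner's parameters were not given in the sources used here. TPM was computed here from counts and lengths. Symbols and transcripts came from GENCODE vM21, in which all 37 chrM genes have the deposited coordinates. Nuclear copies were searched with BLAST 2.17.0 (blastn) in those transcripts, not in a genome, so copies outside annotated transcripts were missed. Bases count as copied at 99% identity or more.

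Variation between libraries was tested with edgeR 4.0.16 in R 4.3.3: filterByExpr with a minimum count of 10, TMM factors (0.9975 to 1.002), trended dispersion, an intercept-only negative binomial fit, and residual deviance against chi-square with 3 degrees of freedom, adjusted by Benjamini-Hochberg over 12712 genes at 0.05. It was tested on simulated data. Gene pairs and complexes were compared within libraries on log2(TPM + 1) by exact two-sided sign-flip permutation tests. Alternatives were other normalizations, dispersions and filters, other pseudocounts and lengths, and leaving out each library. DESeq2 1.42.0 supplied size factors and fitted dispersions for the same edgeR fit and deviance test. Tables were made in Python 3.11.15 (pandas 2.3.3, numpy 2.4.6, scipy 1.17.1) and figures with matplotlib 3.10.9.

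All libraries form 1 group by their cell type label, so no contrast was made. Every pair of libraries differed by more than sampling noise, with 9.14 to 29.1 for the chi-square of their counts per degree of freedom. Members, lists, pairs and tests were chosen with earlier results of these data known, and mt-Rnr1 was known to pass the variation test. All 37 genes are named or counted, and of each nuclear list the 3 genes of highest mean TPM and any called one; Atp5l, Cox8a and Atp5b also appear as extremes of their complex, and Gm10222 joined the 6 listed chromosome 1 copies through the search. Text files that only list other files were not used here. A listed marker of another cell type is not reported here.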

Additional observations from a re-analysis of the deposited data

Results flagged for a closer look

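Of 45 sets of 4 library values examined for a library far from the other 3, 3 stood out, where chance gives about 1 in 20. Replicate 2 had 273136467 fragments in all genes, against 47558517 to 60102919 in the other libraries. The 6 messenger RNA genes wholly inside the copied stretch held 3.33e-06% of all fragments in replicate 1, against 1.65e-05% to 1.89e-05% in replicates 2 to 4. This share rests on 2 fragments in replicate 1, with a Wilson 95% interval of 9.13e-07% to 1.21e-05%. The difference of mt-Cytb minus the nuclear median of complex III was 3.12 in replicate 3, against 3.08 to 3.09 in the other libraries (log2 scale).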

How the results depend on the processing

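Of the alternatives run on results with a main value, 267 kept direction and side of the threshold, or stayed within the spread. Of the others, 7 moved, 3 turned sign, 4 lost a call and 1 gained a call. The 267 include many for single genes that were called in no setting. The number of mitochondrial genes past the edgeR variation test (1) was 0 with GC and length trends removed, and 0 to 1 when each library was left out, 0 without replicate 1 or 2. Over all genes (47) it was 148 without a filter on low counts, 861 with a common dispersion, and 25 to 40 when each library was left out, lowest without replicate 2. With the common dispersion mt-Rnr1 was no longer called and mt-Nd6 was (edgeR adjusted p = 0.224 and 0.00872). The share of fragments from chrM was 0.564% over genes outside the copied stretch and without copies over most of their length. The sign turned in 3 results. mt-Nd5 minus mt-Nd4 was -0.62 with mt-Nd4 divided by its bases without a copy, by construction of the shorter length. Complex I was -0.66 with the mean in place of the median. Complex IV was 3.96 without the genes inside the stretch. Removing GC and length trends, lengths without copied bases, thinning replicate 2 for the variation test and leaving out the stretch were chosen after seeing the data. No paired analysis was possible because all libraries belong to 1 group. Counts of the 6 messenger RNA genes of the stretch and of most transfer RNA genes lie near the floor of 3 fragments in some or all libraries, and the sizes of differences that involve them follow the pseudocount.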
